A study of Mus musculus with 203 samples.

Results

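The CELF genes encode 6 RNA-binding proteins, Celf1 to Celf6, and were followed here in single neurons of the mouse nucleus ambiguus (Amb), the hindbrain nucleus that sends vagal motor axons to the heart and the larynx. All 6 were found among the 24029 genes of the deposited count table, by symbol. They were chosen by family name, but the family was selected on the measured values themselves, because Celf6 separated cardiac from laryngeal neurons in these same counts, so the levels below are a description and no test was made on them.

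CELF proteins hold RNA recognition motifs and bind GU-rich stretches of pre-mRNA and mRNA, by which they control alternative splicing in the nucleus and the decay and translation of mRNA in the cytoplasm. Celf1 and Celf2 form one branch of the family and are made in many tissues, including muscle and heart. Celf3, Celf4, Celf5 and Celf6 form the other branch and are found mostly in the nervous system, where Celf4 is known for its part in neuronal excitability.

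All neurons came from C57BL/6 mice (C57BL/6NCrl in the methods of the study) at postnatal day 2 to 4, were labeled by retrograde cholera toxin B from the heart (Amb Cardiac) or from the cricothyroid muscle of the larynx (Amb Laryngeal), were aspirated from living brainstem slices and were sequenced by Smart-seq2, which reads whole transcripts and does not keep the strand. The labels name no treatment and no transgene, and all types share the tracer but not its injection. Per the methods of the study, the heart and the larynx were injected in separate mice, by different surgery. The volume was smaller for the larynx. Mice, surgery and volume therefore cannot be told apart from the difference between Amb Cardiac and Amb Laryngeal neurons. By the deposited annotation, the 203 neurons are 53 of the type ACP (ambiguus cardiopulmonary) and 98 of the type ACV (ambiguus cardiovascular), which make up 151 Amb Cardiac neurons, and 52 of the Amb Laryngeal type. Every sample is 1 neuron and the labels name neither its mouse nor its plate, so each type counts as 1 sample. ACP and ACV were in addition drawn from the clustering of these counts, on highly variable genes, and whether CELF genes were among those is not given in the sources used here. All SDs, shares and ranges are therefore over neurons, and their intervals cover counting error only.

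Total counts ran from 542162 to 3292763 per neuron. The ribosomal RNA precursor gene Rn45s took 38.0% ± 14.2 (SD, n = 151) of the counts of Amb Cardiac neurons and 58.2% ± 15.7 (SD, n = 52) of those of Amb Laryngeal neurons, which left a median of 1115375 and 560892 other counts. Levels are therefore given as counts per 10000 of a neuron's counts without Rn45s, on which 1 read at those medians is worth 0.00897 and 0.0178. The types carried their defining genes: the mean level of Tbx3 was 0.699 in Amb Cardiac and 0.0901 in Amb Laryngeal neurons, Pappa2 was 2.55 in ACP and 0.0136 in ACV, Hoxa5 was 0.106 in ACP and 4.43 in ACV, and Calca was 0.333 in Amb Cardiac and 20.95 in Amb Laryngeal neurons. The study names these genes among those that contributed to its clustering, so their levels are no separate check of the types. Transcripts of astrocytes, microglia, oligodendrocytes and vessels were present in all types. All 21 listed markers had a read in ACV and in Amb Laryngeal neurons and 19 had one in ACP neurons, which lacked the oligodendrocyte gene Opalin and the vessel gene Flt1. Their summed level had a median of 16.1 in ACP (range 0.0574 to 89.0), 13.3 in ACV (0.345 to 343) and 15.5 in Amb Laryngeal neurons (0 to 186). The 5 listed microglial genes were more than 2-fold lower in ACP than in ACV neurons, with log2 ratios of means from −2.15 for C1qb to −1.38 for C1qc. The other listed glial and vascular markers were within 2-fold between ACP and ACV neurons. Some markers of other neurons also differed between the types. All 6 listed ones had a read in each type, and their summed level had a median of 0.487 in Amb Cardiac (range 0 to 22.2) and 2.43 in Amb Laryngeal neurons (0 to 12.4). Log2 ratios of Amb Cardiac over Amb Laryngeal means were −1.42 for Gad1 and −1.22 for Gad2, which make GABA, and −1.17 for the vesicular glutamate transporter gene Slc17a6. The rest of the listed markers were inside the 2-fold limit in that comparison, at −0.22 for Slc32a1, −0.08 for Slc17a7 and 0.01 for Slc6a5. For ACP over ACV neurons, log2 ratios were 1.16 for Slc6a5 and −1.06 for Slc17a6. The rest of these markers of other neurons were inside the limit there. The part of either set of transcripts in the CELF levels, those of Celf6 and Celf4 included, was not tested.

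Celf6 was the member with the clearest difference and is shown first by its start. The gene lies on the forward strand of chromosome 9 (GRCm38, chr9:59577917-59607292). RefSeq gives it a pair of start-site windows, each of 250 bases before to 50 bases after the start, and the upstream one (GRCm38.p6, chr9:59578087-59578386, forward strand) is 76.7% G and C. It is printed with the window of Celf3 on chromosome 3 (GRCm38.p6, chr3:94484108-94484407, forward strand) because these are the members whose windows hold the cAMP response element TGACGTCA, set in capitals.
Celf6: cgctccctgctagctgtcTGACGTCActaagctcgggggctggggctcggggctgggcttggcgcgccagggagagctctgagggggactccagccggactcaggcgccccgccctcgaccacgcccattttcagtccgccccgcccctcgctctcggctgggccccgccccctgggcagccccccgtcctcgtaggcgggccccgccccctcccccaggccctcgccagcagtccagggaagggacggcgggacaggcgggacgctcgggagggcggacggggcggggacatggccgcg
Celf3: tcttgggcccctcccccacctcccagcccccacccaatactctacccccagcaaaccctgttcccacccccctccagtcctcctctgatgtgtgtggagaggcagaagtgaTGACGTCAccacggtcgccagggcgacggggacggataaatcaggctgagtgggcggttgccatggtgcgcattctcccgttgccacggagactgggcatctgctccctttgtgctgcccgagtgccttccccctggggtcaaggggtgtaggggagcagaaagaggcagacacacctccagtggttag

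The element starts 232 bases before the Celf6 start and 139 bases before this Celf3 start. TGACGTCA reads the same on both strands and was present in 4 of the 20 member windows, 1 of Celf6 and 3 overlapping ones of Celf3, against 1.79% of all 32851 windows in the table. The T-box element TCACACCT, searched on both strands because Tbx3 marks the Amb Cardiac neurons, was in none of the 20 windows and in 1.28% of all windows, and the homeodomain core TAATTA was in none of the 20 and in 5.29% of all. The E-box CAGCTG was in 5 of the 20 windows, of Celf3, Celf5 and Celf6, and in 16.3% of all. Some of these Celf3 windows overlap and hold the same site, and 18.3% of all genes had the element in a window. These are matches of letters in short windows, and Celf4 has no entry in the table.

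Celf6 was detected at 1.91 ± 1.48 counts per 10000 (SD, n = 53) in ACP, 1.44 ± 1.54 (SD, n = 98) in ACV and 0.370 ± 1.12 (SD, n = 52) in Amb Laryngeal neurons. ACP neurons ran from 0 to 5.56 with a median of 1.51. ACV neurons ran from 0 to 10.8 with a median of 1.14. Amb Laryngeal neurons ran from 0 to 7.89 with a median of 0.0363, which is about the worth of a pair of reads, and 3 of the 52 lay above the Amb Cardiac median of 1.23. The types overlapped at the low end, where 19 of 151 Amb Cardiac neurons lay below the Amb Laryngeal median. Of all pairs of an Amb Cardiac and an Amb Laryngeal neuron, the Amb Cardiac neuron had the higher Celf6 level in 82.6% (ties counted as 50%).

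**Figure D1:**
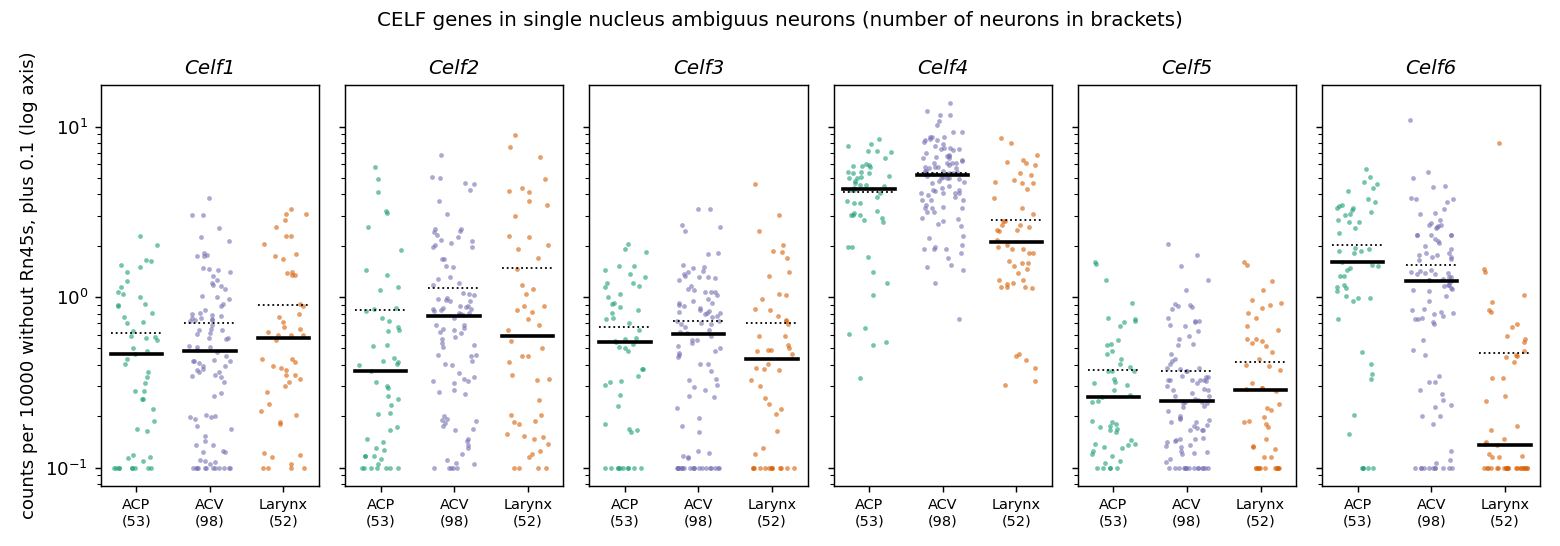
Each point is 1 neuron, placed by its type on the horizontal axis and by its counts per 10000 without Rn45s, plus 0.1, on a log vertical axis. Solid bars are medians and dotted bars are means of the untransformed values. Celf6 has medians of 1.51 and 1.14 in ACP and ACV and 0.0363 in Amb Laryngeal neurons, whereas the neurons of all types overlap widely for Celf1, Celf2, Celf3 and Celf5.

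The mean level of Celf6 was 1.60 ± 1.53 (SD, n = 151) in Amb Cardiac neurons, a log2 ratio of 1.86 to the Amb Laryngeal mean with 0.1 added to both, or 3.63-fold. This is past the 2-fold limit used as a call here, as were, in the same direction, 1.63% of the 13203 genes with a read in 10% or more of the neurons of one or both types. Since Celf6 was chosen for this contrast, nothing is read from that share. The mean log2 level differed by 2.17, against an SD among neurons of 1.65 on that scale. The log2 ratio to Amb Laryngeal neurons was 2.10 for ACP and 1.71 for ACV neurons, which share the same laryngeal cells. With 1 added in place of 0.1 the log2 ratio of Amb Cardiac to Amb Laryngeal neurons was 0.93, just inside the limit.

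A single Amb Laryngeal neuron stood apart. It held 352 Celf6 reads, 32.8% of the 1074 Celf6 reads of all Amb Laryngeal neurons, and its level of 7.89 was followed by 1.35, 1.30 and 0.922 in the next neurons. This neuron had no read of Calca, which 2 of the 52 Amb Laryngeal neurons lacked, and none of Tbx3. Without it the Amb Laryngeal mean of Celf6 was 0.222 ± 0.339 (SD, n = 51) and the log2 ratio was 2.40, or 5.28-fold.

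Celf6 reads were found in 48 of 53 ACP neurons (90.6%, exact 95% binomial interval 79.3 to 96.9), 87 of 98 ACV neurons (88.8%, 80.8 to 94.3) and 31 of 52 Amb Laryngeal neurons (59.6%, 45.1 to 73.0). Because Amb Laryngeal neurons were read less deeply, every neuron was also thinned to 118492 counts without Rn45s, the smallest total. Celf6 was then found in 88.7% of ACP, 84.7% of ACV and 44.2% of Amb Laryngeal neurons. The part of depth in these shares was not tested further.

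The share of Rn45s, which was higher in Amb Laryngeal neurons, moved with Celf6 inside the ACV type. The Spearman rho of Celf6 with that share was −0.35 over 98 ACV neurons, 0.01 over 53 ACP neurons and −0.06 over 52 Amb Laryngeal neurons, and its rho with the counts without Rn45s was 0.51, 0.26 and 0.17. Among neurons with at most 50% of their counts on Rn45s, Celf6 was 1.68 ± 1.31 (SD, n = 121) in Amb Cardiac and 0.236 ± 0.283 (SD, n = 15) in Amb Laryngeal neurons, a log2 ratio of 2.40. Among those above 50% it was 1.31 ± 2.22 (SD, n = 30) and 0.424 ± 1.31 (SD, n = 37), a log2 ratio of 1.43, and both of the highest neurons of the study, at 10.8 and 7.89, were in this band. The ratio was past 2-fold in both bands and smaller in the band of high Rn45s, and the part of Rn45s in it was not tested.

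**Figure D2:**
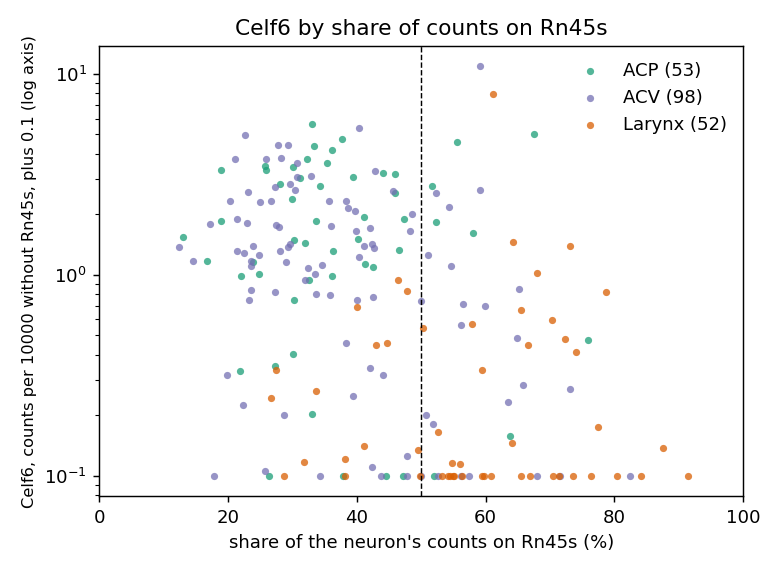
Each point is 1 neuron, with the share of its counts on Rn45s in percent on the horizontal axis and Celf6 in counts per 10000 without Rn45s, plus 0.1, on a log vertical axis. Colors give the type and the dashed line marks 50%. To its left, 121 Amb Cardiac neurons average 1.68 and 15 Amb Laryngeal neurons 0.236, and to its right 30 and 37 neurons average 1.31 and 0.424.

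Celf4 was found in all 203 neurons. Its gene is on the reverse strand of chromosome 18 (GRCm38, chr18:25477632-25754157). Its level was 4.02 ± 2.07 (SD, n = 53) in ACP, 5.26 ± 2.64 (SD, n = 98) in ACV and 2.73 ± 2.09 (SD, n = 52) in Amb Laryngeal neurons. ACP neurons ran from 0.234 to 8.33 (median 4.21), ACV neurons from 0.640 to 13.6 (median 5.10) and Amb Laryngeal neurons from 0.205 to 8.44 (median 1.99). The ranges overlapped throughout, and 10 of 52 Amb Laryngeal neurons lay above the Amb Cardiac median of 4.72. The log2 ratio of Amb Cardiac to Amb Laryngeal means was 0.80 and thus inside the 2-fold limit, the mean log2 level differed by 0.99 against an SD among neurons of 1.02, and the Amb Cardiac neuron was the higher one in 74.7% of pairs. The ratio was past the limit in neurons with at most 50% of counts on Rn45s, with a log2 value of 1.08. Unlike Celf6, Celf4 had a lower mean in ACP than in ACV neurons, with a log2 ratio of −0.38 beside 0.39 for Celf6. Both differences were small beside the spread. The mean log2 level differed by −0.48 for Celf4 and 0.53 for Celf6, against SDs among neurons of 0.92 and 1.70. The ACP neuron was the higher one in 37.1% of pairs for Celf4 and 60.7% for Celf6.

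Celf3, the first of the neuronal branch by number, had a mean level of 0.569 ± 0.533 (SD, n = 53) in ACP, 0.627 ± 0.676 (SD, n = 98) in ACV and 0.609 ± 0.864 (SD, n = 52) in Amb Laryngeal neurons. Medians were 0.446, 0.506 and 0.334. The log2 ratio of Amb Cardiac to Amb Laryngeal means was 0.00 to 2 decimals, and its sign turned with the choice of scaling, so no direction is given. Reads were found in 81.1%, 79.6% and 75.0% of neurons. Its exons share 74 bases with Riiad1 on the opposite strand, of 5473 in all.

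Celf5 was the lowest member of the branch, at 0.272 ± 0.345 (SD, n = 53) in ACP, 0.266 ± 0.355 (SD, n = 98) in ACV and 0.319 ± 0.379 (SD, n = 52) in Amb Laryngeal neurons, and no neuron of any type was above 1.94. It was found in 90.6%, 84.7% and 78.8% of neurons, and, thinned to the same depth, in 66.0%, 64.3% and 67.3%. Its log2 ratio was −0.18 for Amb Cardiac over Amb Laryngeal and 0.02 for ACP over ACV neurons. Of its 6668 exon bases, 543 overlap the antisense gene Gm16105, and reads of the pair cannot be told apart without strand.

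Celf1 was at 0.516 ± 0.549 (SD, n = 53) in ACP, 0.602 ± 0.712 (SD, n = 98) in ACV and 0.798 ± 0.901 (SD, n = 52) in Amb Laryngeal neurons. The lowest neurons of every type were at 0 and the highest were at 2.19, 3.71 and 3.20. Medians of 0.365, 0.384 and 0.477 lay far inside the spread of each type. The log2 ratio of Amb Cardiac to Amb Laryngeal means was −0.42, and it was 0.17 when totals included Rn45s, a scaling that shifted the median of all genes from −0.01 to 0.26. It was 0.06 in neurons with at most 50% of counts on Rn45s and −0.31 in those above 50%.

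Celf2, the longest gene of the family, was at 0.736 ± 1.25 (SD, n = 53) in ACP, 1.03 ± 1.27 (SD, n = 98) in ACV and 1.39 ± 2.04 (SD, n = 52) in Amb Laryngeal neurons. Its values were spread widely in each type, from 0 to 5.71, 6.66 and 8.78, with medians of 0.269, 0.670 and 0.494. The mean was highest in Amb Laryngeal neurons and the median in ACV neurons. For Amb Cardiac over Amb Laryngeal neurons the log2 ratio of means was −0.54. It was 0.02 with totals that included Rn45s, the scaling that moved the median of all genes to 0.26. It was −0.02 in neurons with at most 50% of counts on Rn45s and −0.01 in those above 50%. For ACP over ACV it was −0.43 by means and −1.06 by medians. Celf2 also moved with other measures of the neuron. Its Spearman rho with the summed glial and vascular markers was 0.40 in ACP, 0.31 in ACV and 0.38 in Amb Laryngeal neurons, and with the share of Rn45s 0.11, 0.45 and 0.29, and the part of either in its level was not tested. The exons of Celf2 overlap the lincRNA gene Gm26565 on the other strand by 1961 of 25884 bases.

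Among the 6 members, 1 was past the 2-fold limit between Amb Cardiac and Amb Laryngeal neurons, where 1.63% of all 13203 genes were 2-fold higher and 2.92% were 2-fold lower. The median log2 ratio was −0.09 over the 6 members and −0.01 over all genes. Between ACP and ACV neurons no member was past the limit, where 2.15% of 13357 genes were 2-fold higher and 1.27% were 2-fold lower, and member ratios ran from −0.43 to 0.39 with a median of −0.16 against 0.00 over all genes. The order by ratio to Amb Laryngeal neurons was Celf6, Celf4, Celf3, Celf5, Celf1 and Celf2, and differences among the last 4 were smaller than their SDs among neurons, which ran from 1.15 to 1.72 on the log2 scale.

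No stretch of 75 bases, the read length, is shared between the transcripts of any pair of members in the GENCODE vM21 annotation, so a whole read that matched its transcript exactly had 1 member to go to. Of the distinct 75-base stretches, 1801 of the 26489 of Celf2 are also found in Gm26565, 477 of the 6756 of Celf5 in Gm16105 and 1 of the 6171 of Celf3 in Riiad1, and none of those of Celf1, Celf4 and Celf6 is found in another gene.

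To set members beside each other, each level was divided by the length of the gene's exons in kilobases, which runs from 3.62 for Celf6 to 25.9 for Celf2. On this per-kilobase scale Celf6 had a mean level of 0.528 ± 0.409 (SD, n = 53) and Celf4 of 0.468 ± 0.241 (SD, n = 53) in ACP neurons. In ACV neurons the per-kilobase levels were 0.397 ± 0.426 (SD, n = 98) for Celf6 and 0.613 ± 0.308 (SD, n = 98) for Celf4. In Amb Laryngeal neurons Celf4 led at 0.319 ± 0.244 (SD, n = 52), Celf3 followed at 0.111 ± 0.158 and Celf6 at 0.102 ± 0.308. The other members were at or below 0.115 in each type. The summed per-kilobase level of the family was 1.23 ± 0.499 (SD, n = 53) in ACP, 1.27 ± 0.548 (SD, n = 98) in ACV and 0.728 ± 0.573 (SD, n = 52) in Amb Laryngeal neurons.

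Shares of the family within a neuron do not depend on how the neuron was scaled. Celf6 made up 38.8% ± 24.2 (SD, n = 53) of the per-kilobase CELF level of ACP neurons, 27.0% ± 19.9 (SD, n = 98) of that of ACV neurons and 9.67% ± 13.8 (SD, n = 52) of that of Amb Laryngeal neurons. Celf4 made up 39.6% ± 19.8, 50.4% ± 17.7 and 45.3% ± 19.7. Celf1 and Celf3 made up 14.0% and 15.7% in Amb Laryngeal neurons, against 6.62% and 8.51% in Amb Cardiac neurons. Celf6 was the leading member in 31 of 53 ACP, 21 of 98 ACV and 5 of 52 Amb Laryngeal neurons, and Celf4 in 22, 73 and 39.

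The order of members, that of Celf6 and Celf4 included, depended on the length used. With the longest transcript of each gene, 3.09 kb for Celf6 and 4.00 kb for Celf4, in place of all exons, Celf6 made up 29.9%, 19.2% and 6.83% of the family in ACP, ACV and Amb Laryngeal neurons and led in 11, 8 and 1 of them, while Celf4 led in 40, 88 and 44. The order of the types by the share of Celf6 was the one given above with either length.

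**Figure D3:**
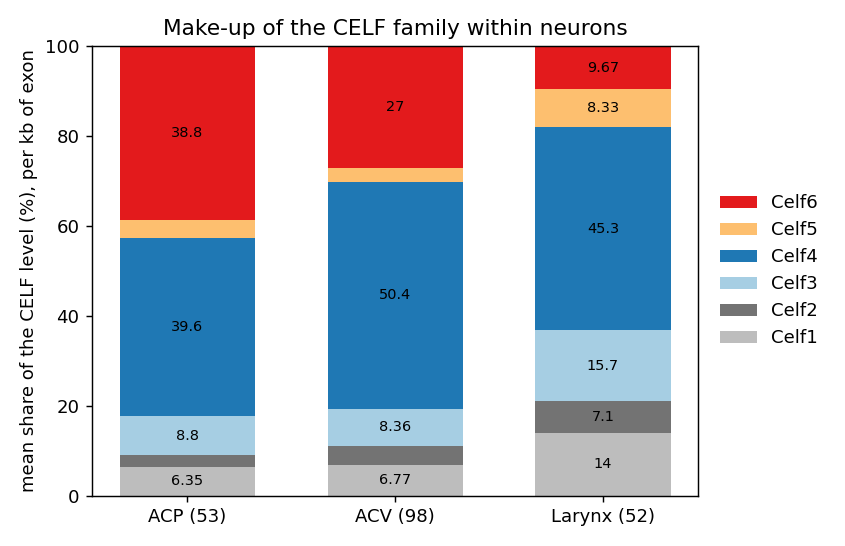
Each bar is a type, with the number of neurons in brackets, and its colored parts are the mean shares of the 6 CELF genes, in percent of a neuron's summed CELF level per kilobase of exon. The share of Celf6 is 38.8% in ACP, 27.0% in ACV and 9.67% in Amb Laryngeal neurons, and Celf4 holds 39.6% to 50.4% of each bar.

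Most neurons held reads of several members. All 6 were found in 30 of 53 ACP, 56 of 98 ACV and 22 of 52 Amb Laryngeal neurons, and the fewest found in a neuron of any type was 2. These counts are not at equal depth, since Amb Laryngeal neurons were read less deeply, and the part of depth was not tested. Within a type, most pairs of members were weakly related from neuron to neuron, and some pairs changed sign between types. Celf6 and Celf4 had a Spearman rho of 0.08 over 53 ACP, 0.17 over 98 ACV and 0.09 over 52 Amb Laryngeal neurons. The highest values were those of Celf2 with Celf5, at 0.52 in ACP and 0.48 in Amb Laryngeal neurons but 0.03 in ACV neurons. Celf1 with Celf6 gave −0.32 in ACP, −0.26 in ACV and 0.17 in Amb Laryngeal neurons, and Celf2 with Celf6 gave −0.22, −0.28 and 0.36. In Amb Laryngeal neurons Celf1 with Celf2 gave 0.37 and Celf5 with Celf6 gave 0.31. The points of each rho share their library and depth, and low values carry sampling noise.

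**Figure D4:**
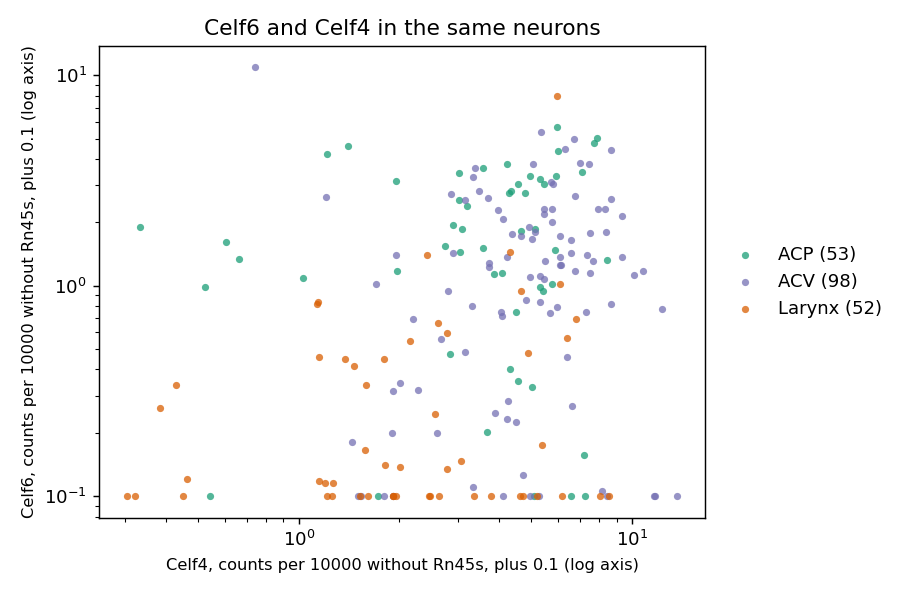
Each point is 1 neuron, with Celf4 on the horizontal and Celf6 on the vertical axis, both in counts per 10000 without Rn45s, plus 0.1, on log axes, and colors give the type. Within types the Spearman rho is 0.08, 0.17 and 0.09, and 21 of 52 Amb Laryngeal neurons lie at 0 for Celf6 while all have Celf4.

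For each member the 3 most alike genes were taken by Spearman rho over all 203 neurons, among 7722 other genes with a read in at least 50% of neurons. For Celf6 these were Fgf13, which encodes an intracellular partner of sodium channels, with a rho of 0.61, Ap2m1, a subunit of the clathrin adaptor AP-2, with 0.58, and Ywhah, a 14-3-3 protein, with 0.56. Fgf13 was itself at 9.63 counts per 10000 in Amb Cardiac and 4.53 in Amb Laryngeal neurons. Within types its rho with Celf6 was 0.56 in ACP, 0.54 in ACV and 0.21 in Amb Laryngeal neurons.

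For Celf4 they included the vesicle GTPase gene Rab3c with a rho of 0.48 and Zwint with 0.41. Within ACP, ACV and Amb Laryngeal neurons the rho with Celf4 was 0.31, 0.32 and 0.49 for Rab3c and 0.29, 0.33 and 0.31 for Zwint. For Celf2 they were the transcription factor gene Mef2c with 0.52, the ribosomal protein gene Rpsa with 0.48 and Marcks, a membrane-bound substrate of protein kinase C, with 0.48. The rho of Celf2 with Mef2c was 0.65 in ACP, 0.39 in ACV and 0.58 in Amb Laryngeal neurons. Values were lower for Celf5, with 0.42 for Sbf2, 0.40 for Nav3 and 0.39 for Jmjd1c, for Celf3, with 0.39 for Arfgap3, 0.36 for Nubp1 and 0.35 for Psmd5, and for Celf1, with 0.34 for Fmnl2 and 0.33 for both Bsdc1 and Ago1. Each rho over all neurons pools types whose means differ, and is a description over neurons that differ in depth.

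Other RNA-binding proteins that control splicing in neurons were compared in the same way, from a list of 25 genes of which 24 passed the detection minimum. None was 2-fold higher and 2 were 2-fold lower in Amb Cardiac than in Amb Laryngeal neurons, where 1.63% and 2.92% of all genes were, with a median log2 ratio of −0.12 over the list against −0.01 over all genes. Those 2 were Rbfox3, which encodes the neuronal antigen NeuN and binds UGCAUG, and Nova1, which binds YCAY elements. Rbfox3 was at 0.459 in Amb Cardiac and 1.27 in Amb Laryngeal neurons, a log2 ratio of −1.29. Nova1 was at 0.538 and 1.28, a log2 ratio of −1.11. Taken by type, the log2 ratio to Amb Laryngeal neurons was −0.88 in ACP and −1.57 in ACV for Rbfox3. For Nova1 it was −0.73 and −1.37, so both genes were past the limit in ACV but not in ACP neurons. Rbfox1 was past it in ACP (−1.42) but not in ACV neurons (−0.66), and Mbnl2 in ACV (−1.13) but not in ACP neurons (−0.53). Between ACP and ACV neurons none of the 24 was past the limit, where 2.15% of all genes were 2-fold higher and 1.27% were 2-fold lower, with log2 ratios of ACP over ACV of 0.69 for Rbfox3 and 0.64 for Nova1.

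In each of the other subfamilies the gene with the highest mean was within the limit in both comparisons. Given as log2 ratios of Amb Cardiac over Amb Laryngeal neurons, these were −0.33 for Elavl2, which stabilizes AU-rich mRNAs, −0.89 for the muscleblind gene Mbnl2, 0.13 for the polypyrimidine tract-binding protein Ptbp2, 0.68 for Srrm4, which drives neuronal microexons, −0.32 for Khdrbs1, 0.06 for Qk, −0.16 for Msi2 and 0.60 for Tia1.

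**Figure D5:**
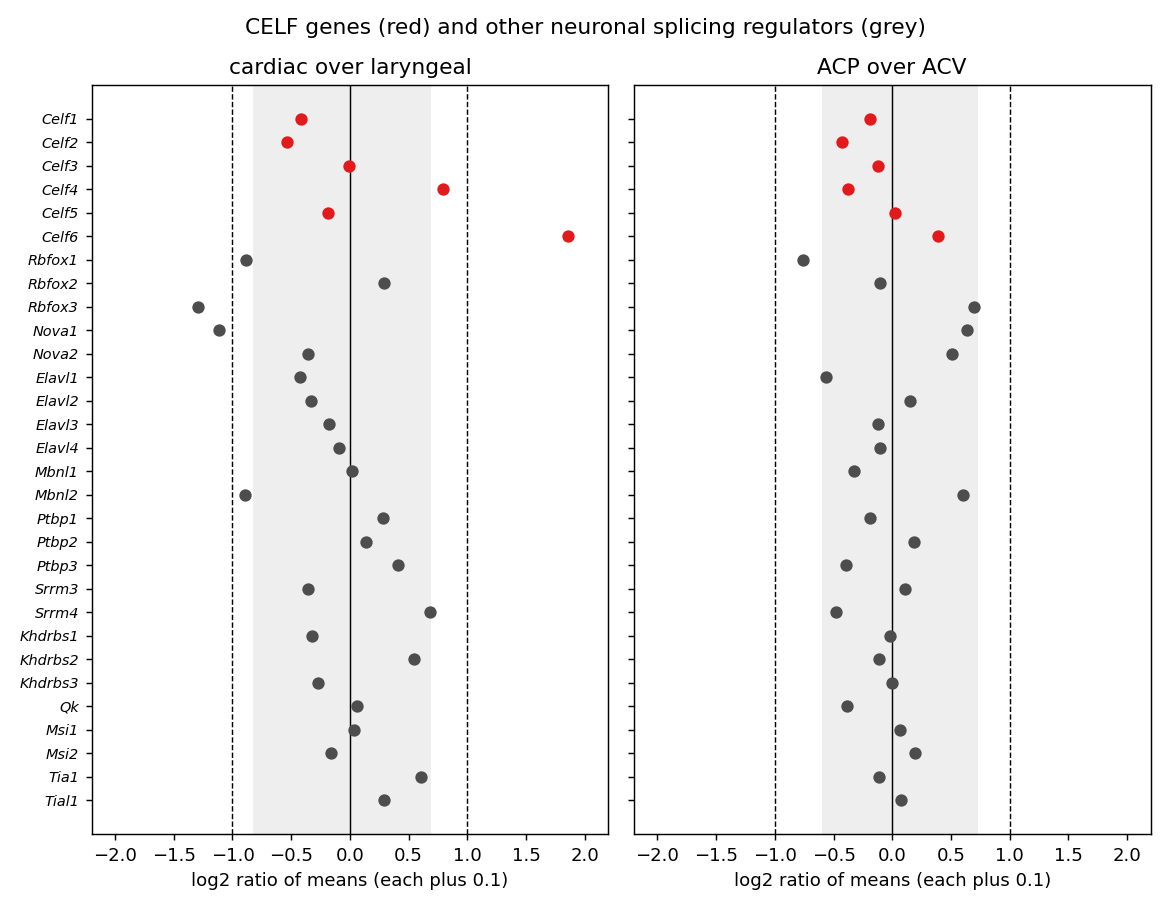
Log2 ratios of mean counts per 10000 without Rn45s (0.1 added to each mean) are shown for Amb Cardiac over Amb Laryngeal neurons on the left and ACP over ACV neurons on the right, with the 6 CELF genes in red and the 24 other splicing regulators that passed the detection minimum in grey. Dashed lines mark 2-fold and the shaded band holds the central 90% of all genes. Celf6 lies at 1.86 on the left, and Rbfox3 and Nova1 lie at −1.29 and −1.11, while no gene of either color is past 2-fold on the right.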

How the data were processed

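Single retrogradely labeled Amb neurons were sequenced by Smart-seq2 with paired 75-base reads. Per the methods, the authors trimmed reads with Skewer, aligned them to mm10 with STAR 2.6.1d (the version also in the submitters' processing notes), removed neurons with few aligned reads or much Apoe, and deposited raw counts per gene and neuron. The counting program and annotation are not given in the sources used here. A further deposited table, which the authors called CPM, was treated as a score without unit, because 100% of its nonzero values equal, within a relative tolerance of 1e-06, the count divided by a neuron total that changed from row to row, mostly not its own. It served only as an alternative. Target and type came from the deposited annotation of the authors, and all columns were mapped.

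Counts were divided by each neuron's total without Rn45s and multiplied by 10000. Ratios are of means plus a pseudocount of 0.1, among genes with a read in at least 10% of neurons of either type, and 2-fold is called past the limit. No test was made, since each type is 1 sample, and edgeR 4.0.16 and DESeq2 1.42.0 supplied only alternative library sizes. Shares have exact 95% binomial intervals, which cover counting error only. Exon lengths, positions and transcripts came from GENCODE vM21 (GRCm38, the sequence of mm10) and start-site windows from RefSeq (GRCm38.p6). Doublets were not sought, since neurons were picked singly. Python 3.11.15, pandas 2.3.3 and scipy 1.17.1 were used.

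Named genes were the 6 members, the 3 most alike genes of each, listed splicing regulators past 2-fold or else the one with the highest mean of each subfamily, type markers, Rn45s and Apoe. One gene that this rule names is not reported here. The members and lists were chosen with earlier results of these data known. Alternatives were other library sizes, pseudocounts, averages, limits and subsets of neurons.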

Additional observations from a re-analysis of the deposited data

How the results depend on the processing

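Celf6 and Celf4 stayed higher in Amb Cardiac neurons under all 16 alternatives (leaving out each neuron counted by its lowest and highest value), with log2 ratios of 0.93 to 3.29 for Celf6 and 0.48 to 1.75 for Celf4. Celf6 fell inside the 2-fold limit with a pseudocount of 1 (0.93). Celf4 passed it with totals that include Rn45s (1.43), the table named CPM (1.75), the median over neurons (1.20) and neurons with at most 50% of counts on Rn45s (1.08). Leaving out 1 neuron gave 1.81 to 2.40 for Celf6 and 0.77 to 0.85 for Celf4. The signs of Celf1, Celf2, Celf3 and Celf5 in that comparison depended on the setting. Between ACP and ACV neurons, Celf2 passed the limit by medians (−1.06), and the other members stayed inside it under every alternative. Totals that include Rn45s and the table named CPM moved the median of all genes, Amb Cardiac over Amb Laryngeal, to 0.26 and 0.46.

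Counts of genes past the limit followed the settings. For Amb Cardiac over Amb Laryngeal neurons, 215 were higher and 386 lower, against 525 and 88 with totals that include Rn45s, 1992 and 52 with the table named CPM, 933 and 1163 with a pseudocount of 0.01, 15 and 34 with a pseudocount of 1, and 999 and 1392 at a 1.5-fold limit. The higher count was 840 with medians, 324 in neurons with at most 900 counts of Apoe and 340 in those with at most 50% of counts on Rn45s, and the lower count was 204 with the mean of log2 values. For ACP over ACV, 287 were higher and 170 lower, against 187 and 101 with totals that include Rn45s, 1009 and 843 with a pseudocount of 0.01, 20 and 14 with a pseudocount of 1, 475 and 297 with medians, 171 and 86 with the mean of log2 values, 564 and 293 in neurons with at most 900 counts of Apoe, and 1050 and 687 at a 1.5-fold limit. The higher count was 444 with DESeq2 size factors, which rest on 291 genes. Apart from these settings' own construction, the cause was not tested. Depth limits the low members most: 1 read at the median depth was worth 0.0178 in Amb Laryngeal neurons. The longest-transcript lengths and the subset with over 50% of counts on Rn45s (1.43 for Celf6, 0.48 for Celf4, −0.31 for Celf1 and −0.01 for Celf2) were added after the data were seen. No paired analysis was possible because the labels give no groups that share replicate numbers.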
